A study of Bos taurus with 8 samples.

Results

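The platelet-derived growth factor (PDGF) system and 5 markers of connective tissue cells were followed in proliferating bovine muscle cells of beef and dairy bulls. The 10 genes on the list were PDGFRA and PDGFRB (the receptors), PDGFA, PDGFC, and PDGFD (ligands), and the connective tissue cell markers DPT, THY1, FAP, S100A4, and TCF4. The list was chosen by the log2 ratios of PDGFRA and DPT on these same arrays, which were already known to be lower in the beef cells, and the question was which other fibroblast markers followed. The values of PDGFRA and DPT are therefore given as a description, without a test. A probe could be matched to 6 of the 10 genes through its RefSeq accession, among 7788 genes named in this way on the array. PDGFRB, PDGFA, PDGFC, and TCF4 had no matched probe and were not analysed here. PDGFRA had 2 probes and the other 5 genes had 1 each, so 7 probes were followed, and all 7 passed the filter on dim probes.

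Cells came from the semitendinosus muscle of 15-month-old bulls of the Limousin (LIM) and Hereford (HER) beef breeds and of the Holstein-Friesian (HF) dairy breed, and no treatment was applied. All cultures were grown in DMEM with fetal bovine serum and antibiotics and were frozen while proliferating, at 80% confluence. The cultures had been enriched for myoblasts by repeated preplating. By the myoblast purity that the study gives, a substantial minority of the cells were of other types. RNA of a beef culture and of an HF culture was hybridized to the same two-colour array, on 4 arrays for LIM (Cy5, with HF in Cy3) and on 4 arrays for HER (Cy3, with HF in Cy5). The labels call the arrays biological replicates, and the HF bull used on each array is not given in the sources used here. The LIM and the HER arrays were on separate slides, each with one dye orientation. Breed, slide, and dye thus cannot be told apart within LIM or within HER. The study had 4 bulls of each breed, so the HF RNA on the 8 arrays came from no more than 4 bulls. HF bulls thus served more than 1 array, within or across the comparisons. Counts over 8 arrays, calls in both breeds, and the standard error of a mean over both breeds do not take this sharing into account. The mean of the LIM and HER effects, called the mean beef effect below, balances the dyes. Precision is limited by the number of arrays. The muscle identity of the cultures was checked on DES (an intermediate filament of muscle cells), MYF5, and MYOD1 (myogenic regulatory factors), which were well above background in both channels of all 8 arrays.

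PDGFs are dimeric growth factors that bind receptor tyrosine kinases, and the alpha receptor encoded by PDGFRA marks the interstitial fibro-adipogenic cells of skeletal muscle, which lay down connective tissue and can become fat cells. DPT encodes dermatopontin, a small protein of the extracellular matrix. THY1 encodes a surface glycoprotein of fibroblasts and other mesenchymal cells, FAP a surface protease of activated fibroblasts, and S100A4 a calcium-binding protein that has been used as a fibroblast marker but is made by many motile cells. The label TCF4 in muscle work often refers to the protein of the gene TCF7L2, which marks muscle connective tissue fibroblasts. Neither that gene nor the gene TCF4 had a matched probe.

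PDGFRA and DPT were lower in the beef channel than in the HF channel on all 8 arrays. The other 4 genes did not go the same way: S100A4, THY1, and FAP were higher in the beef cells in the mean beef effect, and PDGFD was higher in LIM cells. Values are log2 ratios of beef breed over HF, in which -1 means a halving, and a call required a Benjamini-Hochberg adjusted p of at most 0.05 over 17629 probes (limma) together with a fold change of at least 1.3 in either direction.

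The brighter of the PDGFRA probes (A_73_104923) had log2 ratios of -1.29, -2.03, -1.60, and -0.99 on LIM arrays 1 to 4. On HER arrays 1 to 4 it had -1.85, -1.59, -0.76, and -1.25. The ranges of the breeds overlapped, and the means were -1.48 ± 0.44 in LIM and -1.36 ± 0.47 in HER (SD, n = 4 each). The mean beef effect was -1.42, a 2.68-fold lower level in beef cells. The processed signal of this probe ranged from 541 to 681 in LIM cells and from 1209 to 2266 in the HF cells beside them. In HER cells it ranged from 332 to 618, and in their HF partners from 791 to 1864. On both slides the beef and HF signals did not overlap.

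The second PDGFRA probe (A_73_114320) was lower still. Its log2 ratios were -1.43, -2.11, -2.22, and -3.28 on LIM arrays 1 to 4, and -2.25, -1.76, -1.10, and -1.21 on HER arrays 1 to 4. The means were -2.26 ± 0.76 in LIM and -1.58 ± 0.53 in HER (SD, n = 4 each), with a mean beef effect of -1.92 (3.79-fold lower). The probe was dimmer, with 17.6 to 137 in LIM cells and 65.3 to 122 in HER cells against 151 to 446 in HF cells. The lowest ratio, -3.28 on LIM array 4, came from the signal of 17.6, and its 2 spots gave -3.52 and -3.04. On that array the brighter probe gave -0.99, the smallest change of its comparison. Both probes were low on all 8 arrays, and after taking out the mean of each comparison their ratios had a correlation of 0.15. They put the HER arrays in the same order, with array 1 the lowest and array 3 the nearest to 0. On the LIM arrays the order differed, and array 4 was the lowest for the second probe and the highest for the brighter one. How far this array sets the correlation was not tested. Arrays of a comparison share a slide. The size of the difference changed with the processing of the signals. The mean beef effect of the second probe was -1.22 with loess and no background correction, -1.02 with normexp and loess after outlying backgrounds were replaced, and -0.70 with normexp and loess on backgrounds as measured.

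DPT had log2 ratios of -1.06, -0.96, -1.29, and -1.63 on LIM arrays 1 to 4. On HER arrays the values were -1.25, -0.61, -0.41, and -0.38, in which array 1 stood below the other 3. The means were -1.24 ± 0.30 in LIM and -0.66 ± 0.40 in HER (SD, n = 4 each), and the mean beef effect was -0.95 (1.93-fold lower). Signals were between 2630 and 6024 in LIM cells against 8161 and 12541 in HF cells. On the HER slide the lowest HF signal was 5278 and the highest HER signal 5138, so that the groups were next to each other without overlap. DPT had a correlation of 0.86 with the second PDGFRA probe and of 0.16 with the brighter one (8 arrays, centered per comparison). LIM array 4 was the lowest LIM array for DPT and the second probe and the highest for the brighter probe, so these values do not tell which probe DPT follows.

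**Figure D1:**
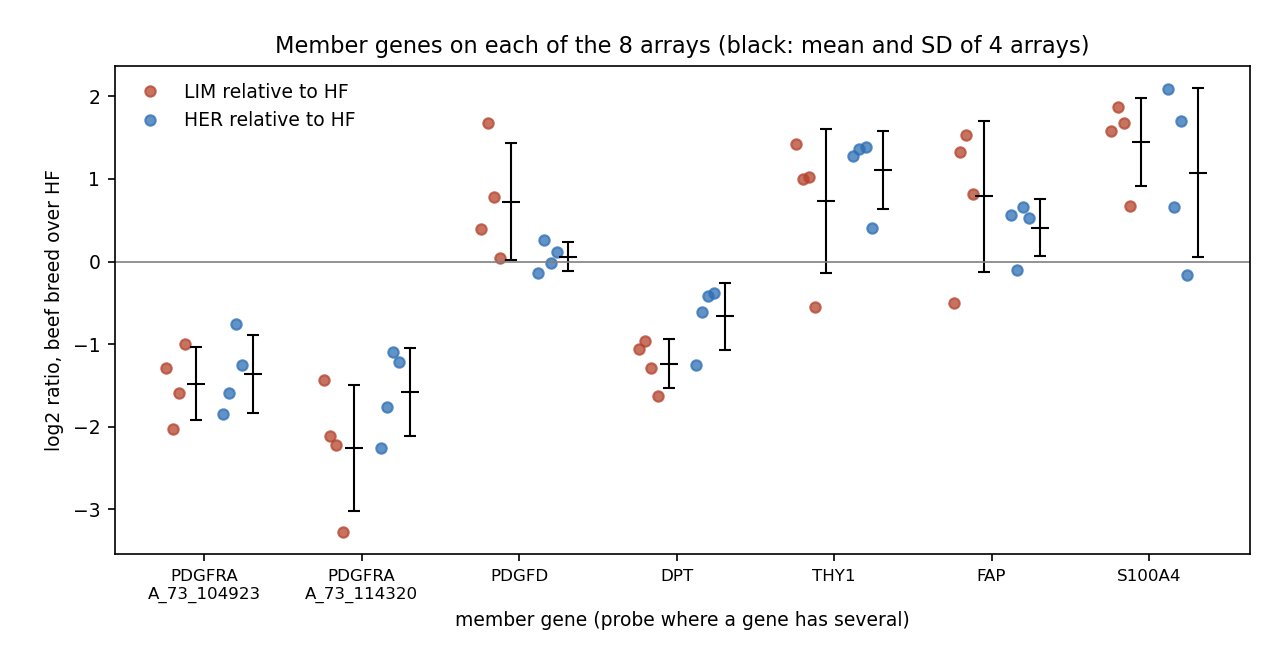
Log2 ratio of beef breed over HF (vertical axis) for each probe of the 6 measured genes, with LIM arrays in red, HER arrays in blue, and the mean and SD of 4 arrays in black. PDGFRA and DPT lie below 0 on all 8 arrays, S100A4 and THY1 above 0 on 7 of 8, and FAP and PDGFD above 0 on 6 of 8.

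Among the 4 genes open to a test, 3 were called higher in the mean beef effect (S100A4, THY1, and FAP) and 0 were called lower. Of all tested probes, 17.7% were called higher and 20.4% lower in that comparison. In LIM alone PDGFD and S100A4 were called higher, where 16% of all probes were called higher and 18.3% lower. In HER alone THY1 was called higher, against a background of 10.4% higher and 14.0% lower. With normexp and loess on backgrounds as measured, 0 probes were called in HER by limma (1742 at an unadjusted p), against 4302 on the reported ratios, 2979 with outlying backgrounds replaced, and 3297 with loess and no background correction. The HER call of THY1 was lost in the first of these settings and held in the other 2.

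S100A4 showed the largest difference of the 4 in the mean beef effect. Its log2 ratios were 1.58, 1.87, 1.67, and 0.67 on LIM arrays 1 to 4, and 2.10, 0.66, 1.71, and -0.17 on HER arrays 1 to 4. Beef cells were thus higher on 7 of 8 arrays, and the number 4 array was the lowest in both breeds. The LIM mean was 1.45 ± 0.53 (SD, n = 4, limma adjusted p = 0.0148), and the HER mean was 1.07 ± 1.02 (SD, n = 4, limma adjusted p = 0.0568), which did not pass the threshold. The mean beef effect was 1.26 with a standard error of 0.25 (2.40-fold, limma adjusted p = 0.00411). Signals of LIM cells, 77689 to 121259, lay above those of their HF partners, 26027 to 52967, without overlap, whereas HER cells, at 30768 to 112798, overlapped with HF at 21913 to 34520. The LIM call was lost without LIM array 2 or 3 (adjusted p = 0.0601 and 0.0615, limma), and HER was called without HER array 4 (1.49) or LIM array 4 (limma adjusted p = 0.0219 and 0.0454).

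THY1 had log2 ratios of 1.43, 1.00, 1.03, and -0.55 on LIM arrays 1 to 4. On HER arrays it had 1.28, 1.36, 1.39, and 0.40. Both number 4 arrays were the lowest of their comparison, and LIM array 4 was the only one on which THY1 was below HF. The LIM mean was 0.73 ± 0.87 (SD, n = 4, limma adjusted p = 0.0968) and the HER mean 1.11 ± 0.47 (SD, n = 4, limma adjusted p = 0.0331). For the mean beef effect the estimate was 0.92 with a standard error of 0.22 (1.89-fold, limma adjusted p = 0.0092). HER signals, 3489 to 6140, did not overlap with HF at 1336 to 3044, and LIM signals, 2651 to 6485, overlapped with HF at 1735 to 3871. The HER call was lost without HER array 1, 2, or 3 (limma adjusted p = 0.117, 0.12, and 0.102), and without LIM array 4 the LIM mean was 1.15 and was called (limma adjusted p = 0.00563).

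FAP, called in the mean beef effect only, had log2 ratios of -0.50, 1.32, 1.53, and 0.82 on LIM arrays 1 to 4, and 0.57, -0.11, 0.66, and 0.52 on HER arrays 1 to 4. The low array was number 1 in LIM and number 2 in HER, neither of which was low for THY1. Neither breed passed the threshold on its own, with 0.79 ± 0.91 in LIM (SD, n = 4, limma adjusted p = 0.0733) and 0.41 ± 0.35 in HER (SD, n = 4, limma adjusted p = 0.342). The mean beef effect was 0.60 with a standard error of 0.22 (1.52-fold, limma adjusted p = 0.0476). The call was lost in 11 of 20 alternative settings, among them leaving out any 1 array except LIM array 1, with adjusted p between 0.0028 and 0.132. Without LIM array 1 the LIM mean was 1.22 and was called (limma adjusted p = 0.00576).

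PDGFD, the only PDGF ligand of the list with a probe, had log2 ratios of 0.39, 1.68, 0.78, and 0.04 on LIM arrays 1 to 4. The HER arrays gave -0.14, 0.27, -0.02, and 0.12. All LIM values were above 0, with LIM array 2 the highest, and the HER values lay on both sides of 0. The mean was 0.72 ± 0.70 in LIM (SD, n = 4, limma adjusted p = 0.0407) and 0.06 ± 0.18 in HER (SD, n = 4, limma adjusted p = 0.877). The LIM call was lost without any 1 array except LIM array 4 (limma adjusted p = 0.0565 to 0.12), and without LIM array 2 the LIM mean was 0.41. The LIM minus HER difference of 0.67 (95% interval -0.09 to 1.42, limma adjusted p = 0.394) did not pass the threshold, so a difference between the breeds was not shown. The mean beef effect of 0.39 was not called (limma adjusted p = 0.0813), except without LIM array 4 (0.50, limma adjusted p = 0.0251) and in 2 other settings. The probe was dim, at 63.4 to 133 in HF cells and 68.9 to 268 in beef cells.

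The breeds were also compared for the other 3 tested genes. The LIM minus HER difference in log2 ratio was -0.38 for THY1 (95% interval -1.37 to 0.62), 0.38 for FAP (-0.60 to 1.37), and 0.37 for S100A4 (-0.78 to 1.52). None of the 4 genes was called, and the intervals allow differences of 1 log2 unit or more in size. Of all tested probes, 0.233% were called in this comparison.

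**Figure D2:**
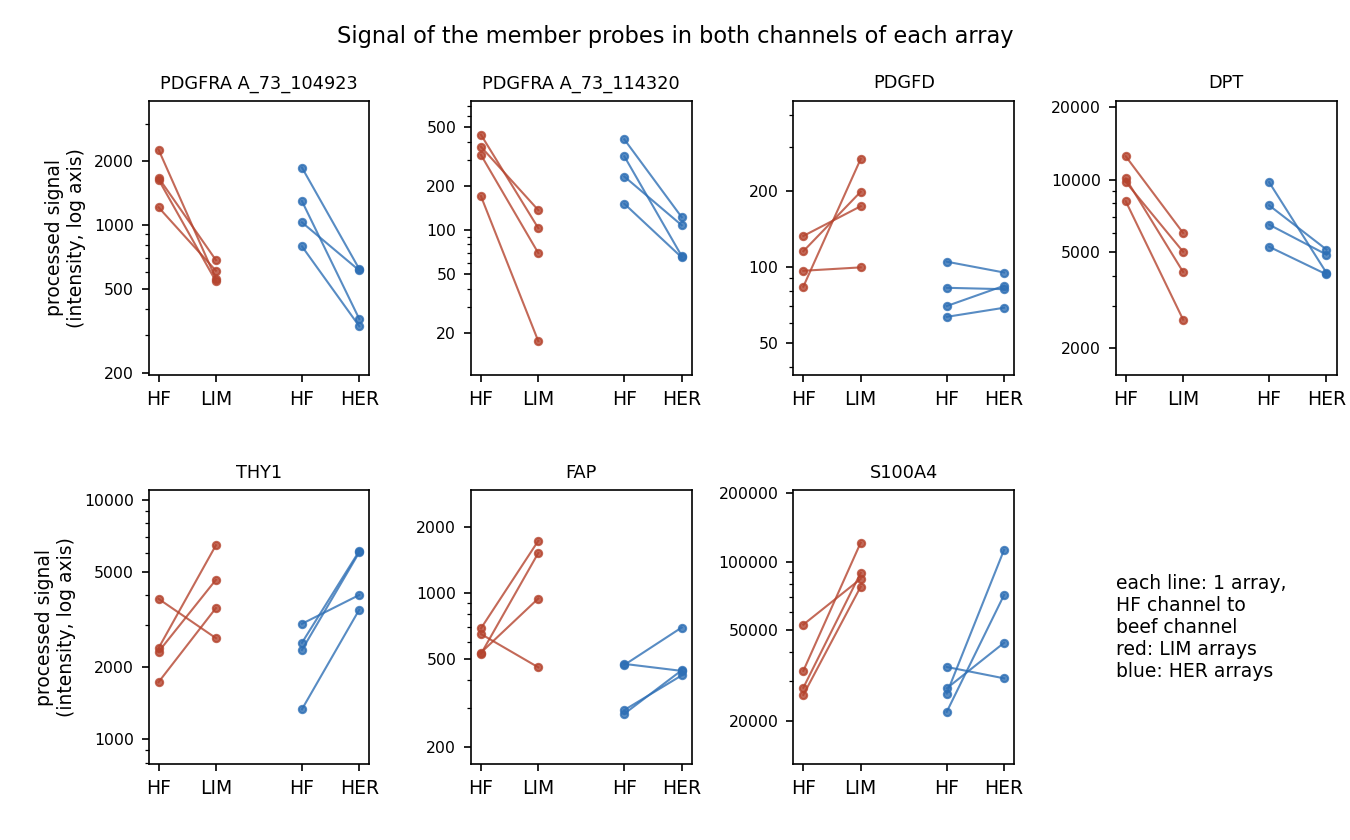
Processed signal (intensity, log axis, scaled to each probe) in the HF channel and the beef channel, with a line for each array, LIM arrays in red and HER arrays in blue. All 16 lines of the 2 PDGFRA probes and all 8 of DPT fall, while 7 of the 8 lines of S100A4 and of THY1 rise.

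A shared course of the members over the arrays was not shown. The 2 PDGFRA probes themselves had a correlation of 0.15, although they ordered the HER arrays alike and stood at opposite ends of LIM on array 4. Over 8 arrays such a correlation can hang on 1 array, so these values cannot tell whether different genes share a course. THY1 and S100A4 had the highest correlation among the tested genes (0.70 over 8 arrays, centered per comparison). The brighter PDGFRA probe and PDGFD had the lowest of any pair (-0.65), while the second PDGFRA probe and PDGFD had 0.32. Without both number 4 arrays, an alternative chosen after their values were seen, the mean beef effect was 1.25 for THY1 (limma adjusted p = 0.000328) and 1.60 for S100A4 (limma adjusted p = 0.00119), and that of FAP was 0.58 (limma adjusted p = 0.132), while PDGFRA was at -1.52 and -1.81 and DPT at -0.93. All 7 probes were well above background in 16 of 16 channels. Their duplicate spots on an array differed by at most 0.48 on the log2 scale, and of the 112 spot readings 0 were marked as outliers in signal and 12 as outliers in background.

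The other PDGF genes on the array were those of ligands, a receptor-like protein, and extracellular regulators of the ligands. SPARC, a matrix glycoprotein that binds PDGF dimers, was higher on all 8 arrays, with 3.36, 2.83, 3.39, and 1.56 in LIM and 2.42, 2.60, 2.51, and 1.64 in HER. The means were 2.79 ± 0.86 in LIM (SD, n = 4, limma adjusted p = 0.000787) and 2.29 ± 0.44 in HER (SD, n = 4, limma adjusted p = 0.00357). PLAU, the urokinase plasminogen activator, a protease that can activate PDGF-D, was higher on all 8 arrays too, by 1.42 ± 0.57 in LIM (SD, n = 4, limma adjusted p = 0.00428) and 1.00 ± 0.59 in HER (SD, n = 4, limma adjusted p = 0.0265). For both genes the lowest value in each breed was on the number 4 array. PDGFB, which encodes the B chain, was not called in either breed, with 0.53 ± 0.55 in LIM and 0.15 ± 0.42 in HER (SD, n = 4 each). PDGFRL, a receptor-like protein without a kinase domain, was not called either, with 0.72 ± 0.34 in LIM and 0.32 ± 0.92 in HER. Of the 5 genes tested in this group, 2 were called higher in both breeds and 0 lower (limma, with 0 lower also at an unadjusted p in either breed), where 7.54% of all probes were called higher and 9.31% lower in both. The median mean beef effect was 0.52, against -0.04 over all tested probes. Without HER array 1, 2, or 3 the HER call of PLAU was lost (limma adjusted p = 0.101, 0.111, and 0.0685), which left 1 gene called in both, and without HER array 4 PDGFRL had a mean beef effect of 0.72 and was called (limma adjusted p = 0.00836).

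Downstream of the receptors, 18 genes of PDGF receptor signalling were tested (adaptor proteins, kinases, and STAT factors). Their median mean beef effect was -0.02, and only FYN, a kinase of the SRC family, was called in both breeds. The shares of all probes called in both were 7.54% higher and 9.31% lower. FYN was lower on all 8 arrays, by -0.52 ± 0.15 in LIM (SD, n = 4, limma adjusted p = 0.0086) and -0.64 ± 0.20 in HER (SD, n = 4, limma adjusted p = 0.008). In LIM 5 of the 18 genes were called higher and 3 lower, where 16% of all probes were higher and 18.3% lower. In HER 0 were called higher (0 also at an unadjusted p, limma) and 1 lower, where 10.4% of all probes were higher and 14.0% lower. With normexp and outlying backgrounds replaced, the LIM value of FYN was -0.48 after loess and 0.29 after centering each array on its median, which also moved the median of all probes in LIM to 0.32.

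Of 13 immediate early and other genes that PDGF is known to induce, 3 were called lower in both breeds and 0 higher (limma). Among all probes, 9.31% were called lower and 7.54% higher in both. JUNB, a subunit of the AP-1 transcription factor, was lower by -1.23 ± 0.35 in LIM (SD, n = 4, limma adjusted p = 0.00384) and -1.07 ± 0.58 in HER (SD, n = 4, limma adjusted p = 0.0126). FOSB, which encodes another AP-1 subunit, was lower on all 8 arrays with both of its probes, at -1.95 ± 0.96 and -1.38 ± 0.38 in LIM and at -1.10 ± 0.49 and -0.80 ± 0.35 in HER (SD, n = 4 each). HAS2 encodes a synthase of hyaluronan, a matrix polysaccharide. In LIM its values were -4.03, -2.60, -2.16, and 0.41, so that LIM array 4 went against the other 3. LIM cells were well above background for HAS2 on 3 of 4 arrays, and the LIM call (limma adjusted p = 0.0321) was lost in 8 of 21 settings. In HER the gene was not well above background in beef cells on any of the 4 arrays, so no fold is given. The HER call on the reported ratios (limma adjusted p = 0.0171) was lost in 7 of 21 settings. With normexp and loess on backgrounds as measured, the HER value of HAS2 was -0.20 (limma adjusted p = 0.587). Its mean beef effect, which takes in the HER values, was -0.41 in that setting in place of -2.43. Over the whole group, at an unadjusted p, 3 of the 13 genes were higher and 5 lower in LIM, where 20.3% of all probes were higher and 21.3% lower. In HER 1 was higher and 4 lower, where the shares of all probes were 15% and 19.9%. The group's median mean beef effect was -0.07. The count of genes called lower in both breeds was 0 without HER array 1 or 2 and 1 without HER array 3, LIM array 2, or LIM array 3, and 1 gene was called higher in both without LIM array 4. The HER call of the brighter FOSB probe was lost in 12 of 22 settings. The mean beef effects of JUNB, this FOSB probe, and HAS2 kept their calls in the settings run, although the size of HAS2 varied as given above.

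**Figure D3:**
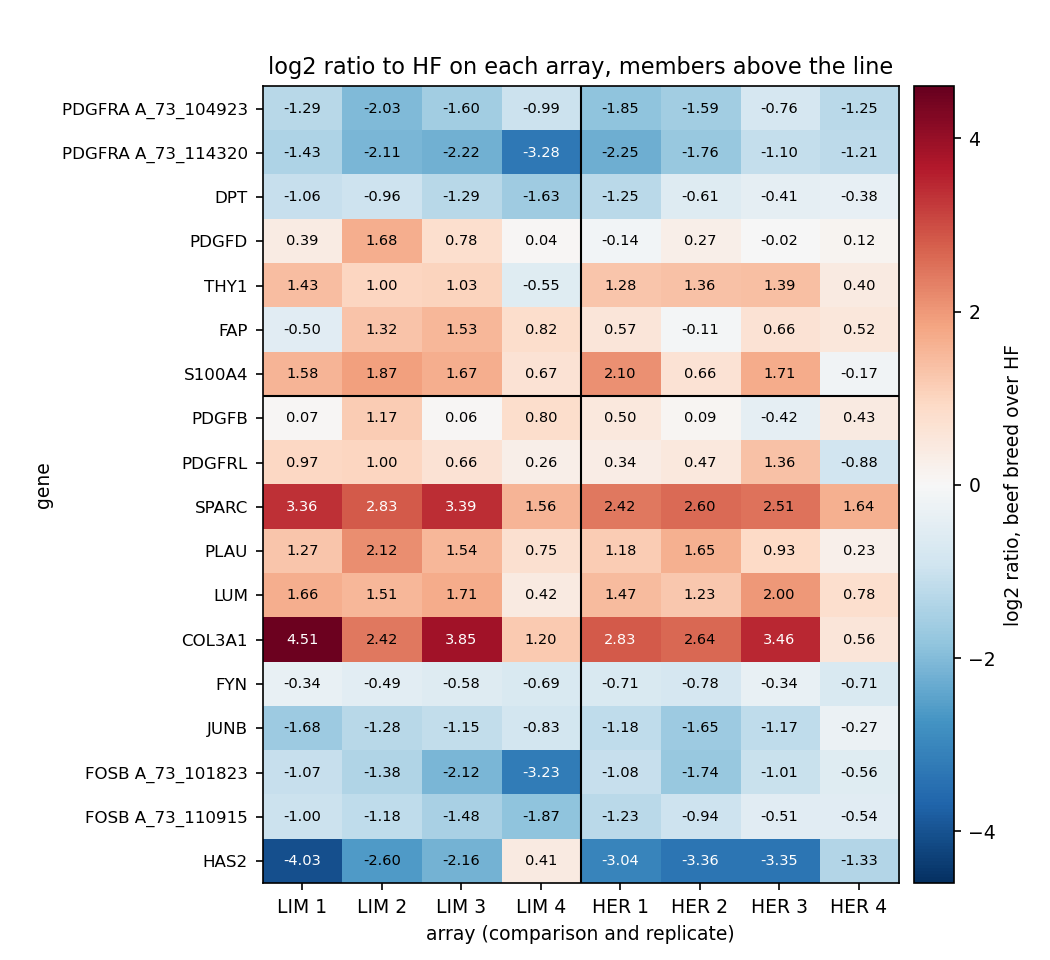
Log2 ratio of beef breed over HF on each of the 8 arrays (columns, LIM and HER replicates 1 to 4) for the measured members (above the horizontal line) and for genes of the PDGF system and matrix (below it), in red where higher and in blue where lower in beef cells. SPARC, PLAU, LUM, and COL3A1 are red on all 8 arrays, PDGFRA, DPT, FYN, JUNB, and FOSB blue on all 8, and THY1, SPARC, PLAU, LUM, and COL3A1 have their lowest value of each breed on array 4.

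To see whether PDGFRA and DPT stood with other markers of connective tissue cells, 23 further markers with a tested probe were counted. In both breeds 9 of the 23 were called higher and 0 lower, where 7.54% of all probes were higher and 9.31% lower. The median mean beef effect was 0.48. COL3A1, a fibrillar collagen, was the highest of the 9, with 4.51, 2.42, 3.85, and 1.20 in LIM and 2.83, 2.64, 3.46, and 0.56 in HER. LUM, which encodes the proteoglycan lumican, had the smallest effect of the 9, with 1.32 ± 0.61 in LIM (SD, n = 4, limma adjusted p = 0.00515) and 1.37 ± 0.51 in HER (SD, n = 4, limma adjusted p = 0.0088). The 9 include fibrillar collagens, fibronectin, and enzymes that modify or cut collagen, which cells other than fibroblasts can also make. Without HER array 1 or 2 the count was 5, and the HER call of COL3A1 was lost without HER array 1, 2, or 3 (limma adjusted p = 0.0907, 0.0854, and 0.0796). In the mean beef effect 11 of the 23 were called higher and 2 lower, where 17.7% of all probes were higher and 20.4% lower. VIM, an intermediate filament of mesenchymal cells, was at -0.59 (limma adjusted p = 0.0108), and CDH11, a cadherin of mesenchymal cells, was at -0.66 (limma adjusted p = 0.0212); they were the 2 called lower and were picked out after their values were seen. DCN, which encodes decorin and was also picked out afterwards, had probes that disagreed, with mean beef effects of 1.63 and -0.35. The summed signal of the 23 markers ranged from 726000 to 1310000 in LIM cells against 475000 to 791000 in their HF partners, and from 617000 to 949000 in HER cells against 356000 to 490000. Paired by array, the log2 ratio of the sums was -0.12 to 1.37 in LIM and 0.47 to 1.12 in HER, so it was not above 0 on every LIM array.

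Array 4 was the lowest of its breed for 16 of these 23 markers in LIM and 11 of 23 in HER. Over all tested probes, array 4 was the lowest for 36.4% in LIM and 25.2% in HER. The median of the 23 markers per array was 0.51, 1.01, 1.71, and 0.42 on LIM arrays 1 to 4 and 1.44, 0.89, 0.99, and 0.66 on HER arrays 1 to 4, above 0 on all 8. Since whole cultures were measured, fewer cells of a type and less RNA per cell cannot be told apart for PDGFRA, DPT, or any marker here.

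**Figure D4:**
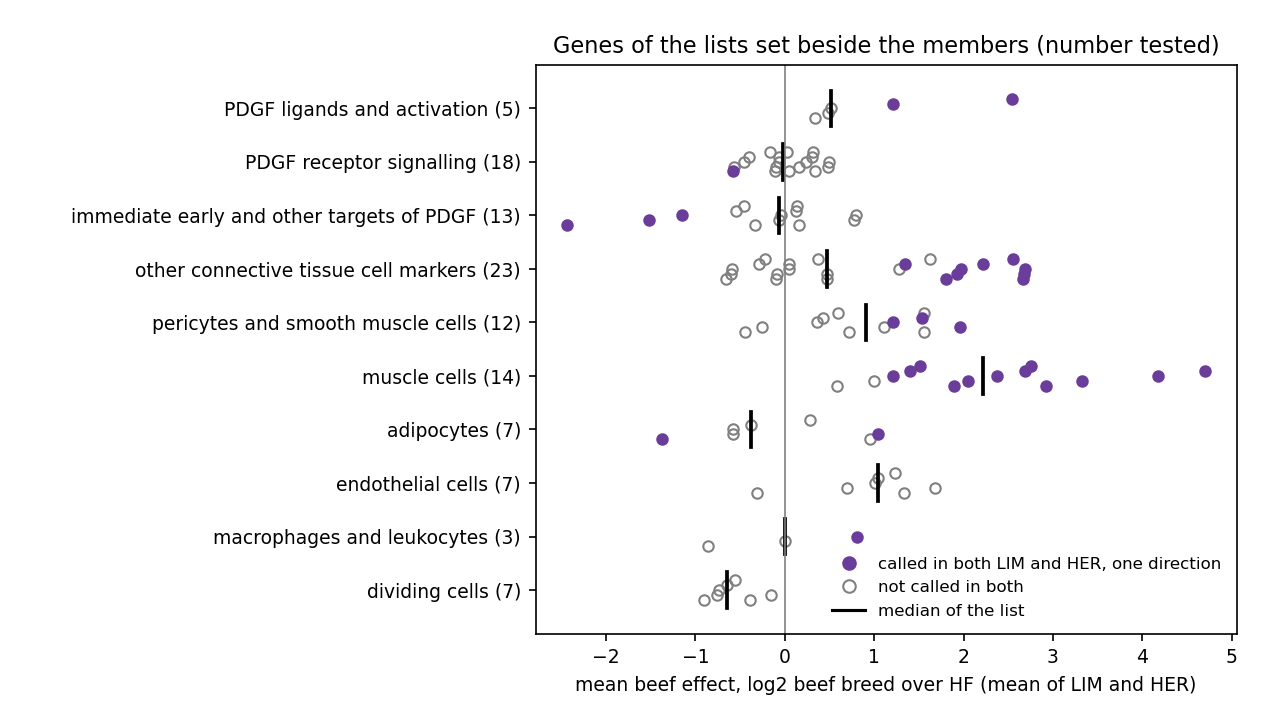
Mean beef effect (log2 beef breed over HF, horizontal axis) of each tested gene in the marker groups, filled where the gene was called in one direction in both breeds, with the median of each group as a black bar. The median is 2.21 for muscle cell genes, 0.48 for connective tissue cell markers, -0.02 for PDGF receptor signalling, and -0.65 for genes of dividing cells.

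Markers of other cells moved along with these results, and their part in them was not tested. Of 14 muscle cell genes, 12 were called higher in both breeds and 0 lower, with a median mean beef effect of 2.21. Among all probes, 7.54% were called higher and 9.31% lower in both. ACTA1, the actin of skeletal muscle, stood at 4.74 ± 1.92 in LIM and 4.66 ± 1.21 in HER (SD, n = 4 each), and MYF6, a myogenic factor, at 1.27 ± 0.88 and 1.15 ± 0.59. DES was at 2.91 ± 0.92 and 2.47 ± 0.50, MYF5 at 2.41 ± 0.73 and 1.38 ± 0.56, and MYOD1, which was not called in either breed, at 0.88 ± 0.50 and 1.12 ± 1.20. The mean beef effect of MYOD1 was 0.996 and was called (limma adjusted p = 0.0193). That call was lost in 1 of 20 settings, the one without LIM array 1. In HER the call of MYF6 was lost without any 1 HER array and that of MYF5 without HER array 1 or 2, and the LIM call of MYF6 was lost without LIM array 1 or 3. The summed signal of the 14 genes was 92200 to 210000 in LIM cells and 20600 to 66200 in their HF partners, and 46800 to 190000 in HER cells and 13300 to 44500 in theirs.

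Of 12 genes of pericytes and smooth muscle cells, 3 were called higher in both breeds and 0 lower, with a median of 0.91. Among all probes, 7.54% were called higher and 9.31% lower in both. Summed signals were 226000 to 491000 in LIM and 281000 to 496000 in HER cells against 107000 to 279000 and 135000 to 196000 in HF cells. Paired by array, the log2 ratio of the sums was -0.30 to 2.20 in LIM and 0.82 to 1.53 in HER. The 3 genes included MYLK, the kinase of myosin light chain (1.84 ± 1.41 in LIM and 2.09 ± 0.51 in HER), and ACTA2, smooth muscle actin (1.27 ± 1.07 and 1.15 ± 0.40, SD, n = 4 each). In LIM, both were below HF on array 4 and above it on the other 3 arrays. The count of 3 fell to 1 without HER array 2, LIM array 2, or LIM array 3, and to 0 without HER array 1.

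Fat cell markers are of interest beside PDGFRA because cells with this receptor can become fat cells. Of 7 such markers, 1 was called higher and 1 lower in both breeds, where 7.54% of all probes were higher and 9.31% lower. CEBPA, a transcription factor of fat cells, was lower on all 8 arrays, by -1.94 ± 0.64 in LIM (SD, n = 4, limma adjusted p = 0.00103) and -0.81 ± 0.42 in HER (SD, n = 4, limma adjusted p = 0.0421). PLIN1, a coat protein of lipid droplets, was higher, at 1.06 ± 0.77 in LIM and 1.03 ± 0.62 in HER (SD, n = 4 each), but was well above background in HF cells on 2 of 4 arrays of each slide. Its mean beef effect of 1.05 was 0.18 and 0.28 with normexp and loess (backgrounds as measured and with outlying ones replaced) and 0.087 with normexp and median centering, and it was called in none of these 3 settings. PPARG, the main regulator of fat cell formation, was not called in either breed, at -0.46 ± 0.77 and -0.70 ± 0.54 (SD, n = 4 each), and had a mean beef effect of -0.58 (limma adjusted p = 0.0467). The call of PLIN1 in both breeds was lost without HER array 1, 2, or 3 or LIM array 1, 2, or 3, that of CEBPA without any 1 HER array or LIM array 2 or 3, and that of PPARG without HER array 1, 3, or 4 or without LIM array 1, 2, or 4 (limma adjusted p = 0.062 to 0.103). The summed signal of the 7 markers was 18200 to 63900 in LIM against 119000 to 150000 in HF and 38500 to 51600 in HER against 55200 to 112000 in HF. The CEBPA probe alone made up 84.5% to 98.8% of these sums. The other 6 probes summed to 2120 to 9890 in LIM against 1690 to 4090 in HF, and to 718 to 1490 in HER against 1130 to 2450 in HF, which overlapped on both slides.

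Endothelial and blood cell markers gave few calls. The defining markers PECAM1 and PTPRC had no matched probe. The summed signal of 7 endothelial genes was 722 to 13400 in LIM and 286 to 9340 in HER cells, and 959 to 3210 and 632 to 1880 in HF cells. The list's median mean beef effect was 1.04, and 6 of the 7 genes were above 0, from 0.69 for ERG, a transcription factor, to 1.68 for ESAM, an adhesion molecule, of which 0 were called (limma, 1 at an unadjusted p, where 19.3% of all probes were higher). The arrays differed widely, with list medians of -0.69, 3.31, 0.87, and 3.09 on LIM arrays 1 to 4 and 3.32, -0.41, -2.76, and 1.51 on HER arrays 1 to 4. In a single breed 1 gene was called, CLDN5, a tight junction protein, which was lower in HER (-0.57 ± 0.23, SD, n = 4, limma adjusted p = 0.0147), where 14.0% of all probes were lower. This call was lost without HER array 1 or 2 (limma adjusted p = 0.055 and 0.0688) and in the 4 settings with other background correction or normalization, where the value was -0.27 to -0.049. For 3 genes of macrophages and leukocytes the sums stayed between 154 and 806 in all channels. Of the 3, 1 gene was called higher in both breeds, where 7.54% of all probes were. This was CD68, a lysosomal protein (0.68 ± 0.57 in LIM and 0.94 ± 0.40 in HER, SD, n = 4 each). HF cells were well above background for it on only 2 of the HER arrays, and the CD68 call in both was lost without any 1 array except LIM array 3. The mean beef effect of CD68, 0.81, was 0.33 with loess and no background correction, 0.18 and 0.26 with normexp and loess, and 0.090 with normexp and median centering, and was called in none of these. Genes of dividing cells, 7 of them, had 4 called lower in the mean beef effect, where 20.4% of all probes were, and 2 in LIM, where 18.3% were, AURKA, a mitotic kinase (-0.75 ± 0.69), and MCM5, a subunit of the replicative helicase (-1.06 ± 0.74; SD, n = 4 each). In HER 0 of the 7 were called (limma), where 14.0% of all probes were called lower. At an unadjusted p 4 were lower, where 19.9% of all probes were. The median of the 7 was 0.46 on LIM array 4, against -1.44 to -0.71 on the other LIM arrays and -1.10 to -0.23 on the HER arrays. The LIM call of AURKA was lost without any 1 array except HER array 4 or LIM array 4, and that of MCM5 without LIM array 1 or 3, while without LIM array 4 both were called lower in HER (limma adjusted p = 0.0146 and 0.0122). Their summed signal was 51200 to 102000 in LIM cells against 83000 to 158000 in HF and 37300 to 77100 in HER cells against 53600 to 117000 in HF.

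The named genes whose course over the 8 arrays was most like that of the brighter PDGFRA probe, after taking out the mean of each comparison, were ARPIN (correlation 0.99), NDOR1 (0.98), COPS4 (0.97), ZNF277 (0.97), and ZNF583 (0.97). Arrays of a comparison share a slide and a dye orientation, and the 5 genes were the highest of all named genes tested. The second PDGFRA probe had a correlation of 0.15 with the brighter one, and the PDGFRA probes stood at opposite ends of LIM on array 4. The likeness is thus given for the brighter probe only, and whether it holds for the gene was not tested. The changes of the 5 genes were small next to PDGFRA, with mean beef effects between -0.33 for COPS4 and 0.10 for ZNF277.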

How the data were processed

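Transcripts were measured on 8 two-colour arrays (Bovine 4x44K, 44407 spots each used here), 4 of LIM against HF and 4 of HER against HF, grouped by the sample labels. The authors deposited the output of Feature Extraction 10.7.3.1 for each array, with an intensity per spot and colour and the software's log10 ratio (red to green, after its background subtraction and dye normalization). The deposited series table holds the same log10 ratio. Its columns all belong to the samples, and 0 columns of other series were met.

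The log10 ratio was turned to log2 beef breed over HF, with the sign turned on HER arrays. Control spots and outlier-marked spots were left out and spots of a probe were averaged. The test took in 17629 of 21475 probes, keeping a probe if 4 or more of the 16 channels were well above background (68.8% to 85.2% of probes per channel). All arrays were fitted together with a mean per comparison in limma 3.58.1 (lmFit, eBayes; R 4.3.3), and calls needed adjusted p ≤ 0.05 and FC ≥ 1.3. P-values measure the spread between these arrays. The methods name a t-test with a p threshold and the same FC, and whether p was adjusted is not given there, so the t-test was run both ways as an alternative. The smallest two-sided p that an exact sign-flip test of 4 arrays allows is 0.125, so no such test was used. Probes were named by matching their RefSeq accessions to a gene table of assembly ARS-UCD2.0, with 7793 matches among 20693 accessions. The files' design rests on another assembly, so no coordinates are given, and the brightest probe stands for a gene in the marker lists.

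The members and lists were chosen with earlier results of these data known. Named are all member probes, PDGFB and PDGFRL, in each list the highest and lowest gene called in both breeds (otherwise in 1), every PDGF gene called in both, defining markers, and the 5 genes most like the brighter PDGFRA probe, with further genes marked as chosen afterwards. Same-numbered arrays of both comparisons were checked for pairing by correlation, and the check did not settle whether they share an HF culture. On simulated data with 17629 probes, the mean beef effect step recovered 73% of the probes given a log2 change of 1, and 96% where the change was 2. Within LIM the shares were 46% and 89%, and within HER 56% and 94%. Far fewer probes were changed in the simulation than were called in the data, and its arrays were independent. The shares therefore need not hold for the calls given here. Alternatives covered background correction (normexp, offset 50), normalization, the filter, the test, array weights, the replicate block, and leaving out arrays.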

Additional observations from a re-analysis of the deposited data

Results flagged for a closer look

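In 74 groups of 4 arrays looked at, 4 held 1 array that stood apart from the other 3 by more than Dixon's 95% limit for 4 values, which chance does in about 1 of 20 groups. THY1 was at 0.40 on HER array 4, against 1.28 to 1.39 on the others. LUM was at 0.42 on LIM array 4, against 1.51 to 1.71. HAS2 was at -1.33 on HER array 4, against -3.36 to -3.04, all without a beef signal well above background. FYN was at -0.34 on HER array 3, against -0.78 to -0.71.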

How the results depend on the processing

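In all settings, PDGFRA and DPT kept a ratio below 0 in both breeds, with mean beef effects of -1.52 to -0.95 for the brighter and -2.06 to -0.70 for the second PDGFRA probe (-1.67 for the mean of both) and -0.997 to -0.542 for DPT. The calls of THY1 and S100A4 in the mean beef effect held in 20 of 20 settings each, with adjusted p of 0.000328 to 0.0396 and 0.000886 to 0.0142. In HER, the call of THY1 was lost in 6 of 22 settings. In LIM, the call of S100A4 was lost in 3 of 22 and that of PDGFD in 11 of 22. Where a value changed, the cause was not tested, other than that settings without an array hold fewer arrays.

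Counts of called probes (6056 in LIM, 4302 in HER, 6723 in the mean beef effect, and 41 in LIM minus HER) moved as follows. With normexp and loess on backgrounds as measured they were 0 in HER, 3289 in the mean beef effect, and 0 in LIM minus HER (1742 and 1522 at an unadjusted p for the zeros), and the medians were 1.42 for muscle cells and -0.051 for adipocytes. With outlying backgrounds replaced, LIM minus HER gave 1, muscle cells 1.75, and adipocytes -0.083, and without background correction LIM minus HER gave 1. With normexp, outlying backgrounds replaced, and median centring the counts were 11314, 2315, and 8504 in LIM, HER, and LIM minus HER, the PDGF ligand list had a median of 0.82, and PDGF receptor signalling reversed to 0.25. In that setting the median of all probes was 0.32 in LIM and 0.43 in LIM minus HER, and the share of calls that were higher was 66.7% in LIM and 73.6% in the mean beef effect, against 52.2% and 54.8% with the same backgrounds and loess and 46.7% and 46.5% as reported. In HER that share was 42.6% and rose to 54.8% with backgrounds replaced and 55.1% without correction. LIM minus HER gave 18 with scaling between arrays, 76 without the filter, 0 with all 16 channels well above background (1838 at an unadjusted p), 2482 at an unadjusted p, and 256 with array weights. The methods' t-test gave 5070 probes in LIM and 4823 in HER at its own threshold, and 1002 and 2 after adjustment. Leaving out 1 array gave 3794 to 7011 in LIM, 1527 to 5437 in HER, and 1 to 14 in LIM minus HER. Without both number 4 arrays, added after seeing the data, LIM minus HER gave 1.

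Same-numbered arrays had correlations of -0.24, 0.13, 0.30, and 0.54, and 2 of 4 LIM arrays correlated best with their own number. The 0.54 of the number 4 arrays was the highest of any LIM and HER pair. Whether same-numbered arrays share an HF culture cannot be told from these values. With the replicate block, LIM minus HER gave 0 (2706 at an unadjusted p), LIM 6357, and HER 4302, and 4 calls of named genes were lost, those of FAP in the mean beef effect and of FOSB, CEBPA, and MYF6 in HER.

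Of 64 calls of the named genes, 27 were lost with normexp and loess on backgrounds as measured, 13 with outlying backgrounds replaced, 9 with loess and no background correction, 13 (and 4 reversed) with normexp and median centring, and 12 without the filter. Of 40 calls within a breed, the methods' t-test lost 40 after adjustment and 9 before it. Some values of single genes reversed. PDGFD in HER was -0.0051 with normexp on measured backgrounds, -0.0016 with normexp and median centring, and -0.014 to 0.12 when 1 array was left out. PDGFRL in HER was -0.073 with normexp on measured backgrounds and -0.023 to 0.72 when 1 array was left out. CLDN5 in LIM was 0.017, 0.014, and 0.023 with normexp on measured backgrounds, with backgrounds replaced, and with array weights. In LIM, normexp with median centring put FYN at 0.29, PLIN1 at -0.12, CD68 at -0.15, AURKA at 0.073, and PPARG at 0.089.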
